A study of Mus musculus with 16 samples.

Results

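The mouse's own autosomal genes were followed in the cerebellum of TcMAC21 pups, a mouse model of Down syndrome, and each TcMAC21 pup was set against the euploid littermate with the same replicate number. The pairs were TcMAC21 replicates 1 to 4 with euploid replicates 1 to 4. The genes were the rows of mouse chromosomes 1 to 19 whose normalized count averaged 10 or more over the 8 animals, which left 12958 of the 13807 genes in the table, or 12958 of its 13229 autosomal genes. The other 271 autosomal genes were below that mean, and the genes of human chromosome 21, X and Y were set aside. The lowest mean kept was 10.02 and the highest left out was 9.96. Poly(A) RNA of whole cerebellum was sequenced at postnatal day 6. Both groups came from one cross on a C57BL/6J (B6) x DBA/2J (D2) background. What sets the TcMAC21 pups apart is an artificial chromosome, which holds most of human 21q and a GFP gene and which the euploid pups lack. A second cross, with 4 Ts65Dn pups and 4 euploid littermates on a C57BL/6J x C3H/HeJ background, served as a comparison. Ts65Dn mice have an additional copy of the distal part of mouse chromosome 16 (MMU16) and of the start of MMU17.

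Every mouse autosome is present in the usual pair of copies in TcMAC21 pups, so the copy number of these genes is the same in both pups of a pair. Sonic hedgehog, secreted by Purkinje cells, drives the division of granule cell precursors in the outer layer of the postnatal cerebellum. A smaller cerebellum is a known feature of Down syndrome and of several of its mouse models. In whole tissue, fewer cells of a type and less RNA per cell cannot be told apart. The table gives each gene as a chromosome and an assembler number and pairs it with no symbol. Genes are therefore described by chromosome, abundance and change, at most 4 are printed by identifier, and the cerebellar origin of the tissue could not be checked on marker genes.

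Gene-level reads numbered 7704334 to 20225316 in the TcMAC21 pups and 11052121 to 19560621 in their littermates. The summed normalized count of human chromosome 21 ranged from 48003 to 61687 in the TcMAC21 pups and from 205 to 338 in the littermates, so all 8 libraries matched their genotype labels. The summed count of the Y-linked genes was between 2093 and 3227 in 7 of the animals and 7.15 in euploid replicate 4. The fourth pair thus set a pup with Y-linked RNA against a littermate at background, while both pups of the other pairs had Y-linked RNA. TcMAC21 replicate 4 also had the fewest reads of the 8 libraries. Along the first principal component of the autosomal genes, which held 51.0% of the variance, TcMAC21 replicate 4 had the highest loading (0.77), followed by euploid replicate 4 (0.30), and the other 6 animals ran from -0.41 to 0.02. The number of called genes and the 4 printed genes are therefore given with all 4 pairs and without the fourth, while calls by abundance and by chromosome are given with all 4 pairs only.

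Within a pair, most autosomal genes differed little between the TcMAC21 pup and its littermate. The within-pair change is the log2 of the normalized count plus 1 in the TcMAC21 pup minus that in its littermate, and its median over the 12958 genes was 0.01, -0.01, 0.01 and 0.003 in pairs 1 to 4. The SD over genes was 0.286 in pair 1, 0.372 in pair 2 and 0.348 in pair 3, and it was 0.552 in pair 4. Changes of more than 2-fold were found for 106 genes in pair 1, 225 in pair 2, 225 in pair 3 and 889 in pair 4. The fourth pair was the broadest by every one of these measures. Across genes, the changes of pairs 1 to 3 were related, with Pearson's r of 0.343 between pairs 1 and 2, 0.30 between pairs 1 and 3 and 0.396 between pairs 2 and 3. Pair 4 was related less to pair 1 (0.152), pair 2 (0.128) and pair 3 (0.21). No animal is shared between pairs, and these correlations are descriptions over 12958 genes, which are not independent replicates.

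**Figure D1:**
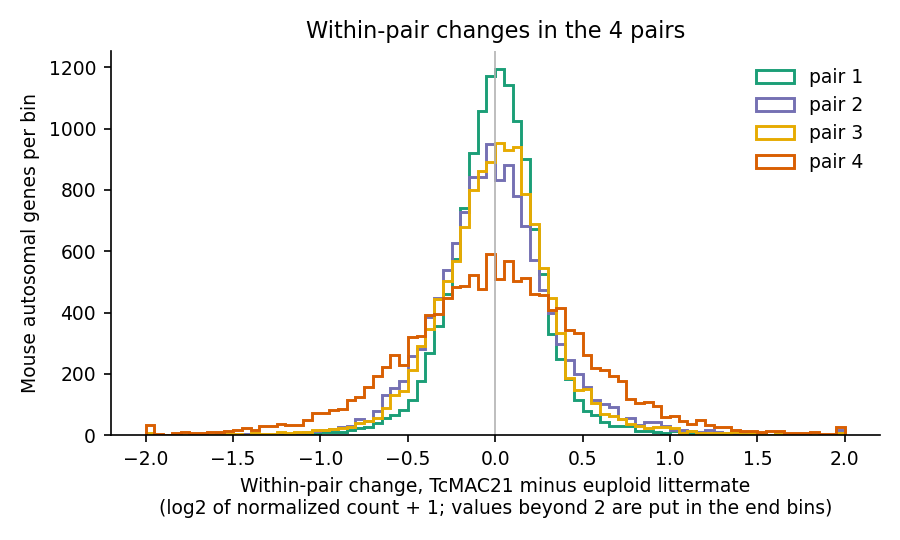
Histogram of the within-pair change of 12958 mouse autosomal genes (x axis, log2 of the normalized count plus 1, TcMAC21 minus euploid littermate; y axis, genes per bin), one line per pair. All 4 lines are centred near 0, and the line of pair 4 is the widest, with an SD of 0.552 against 0.286 to 0.372 in the other pairs.

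The same direction in all 4 pairs was found for 4433 autosomal genes, 2234 of them higher and 2199 lower in TcMAC21. That is 34.2% of the autosomal genes, and 35.0% of all 13523 genes tested in this cross had all 4 changes in one direction. Over pairs 1 to 3 alone, 6891 autosomal genes (53.2%) kept one direction. Few of these changes were large. In every pair, 18 genes moved by more than 1.5-fold in one direction, 11 higher and 7 lower, and 2 moved by more than 2-fold.

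In the paired test, 119 autosomal genes separated TcMAC21 from euploid pups at an adjusted p under 0.05, 28 of them higher (0.216% of 12958) and 91 lower (0.702%) in TcMAC21 (limma on log2(normalized count + 1) with the pair as a block and Benjamini-Hochberg adjustment over all 13523 genes tested). This is 0.918% of the autosomal genes, whereas 1.78% of all genes tested passed, 1.01% higher and 0.769% lower. The higher ones among all genes were mostly the 108 human genes. The changes were moderate. The 28 genes that rose had a median log2 change of 0.50, or 1.41-fold, and ran from 0.36 to 0.88. The 91 genes that fell had a median of -0.51, or 0.701-fold, and ran from -1.53 to -0.36, and 3 of them fell by more than 2-fold. All 119 genes had 4 within-pair changes in the direction of the call. The groups of 4 animals did not overlap for 8 of the 28 genes and 31 of the 91 genes. Among all autosomal genes the groups did not overlap for 4.26%.

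The number of genes that passed by limma moved with the pair block, with the human, X and Y genes as 1 set, and with the fourth pair. Without the pair as a block, 2 autosomal genes passed by limma, both lower, and both were among the 119. The human genes, all of them called, were adjusted together with the mouse genes. When the human, X and Y genes were left out of the fit, 1 autosomal gene passed by limma, and the adjusted p of the 119 genes then ran from 0.0401 to 0.0881. DESeq2 called 670 autosomal genes with the human, X and Y genes and 687 without them. Without the fourth pair, 1985 passed by limma. Before adjustment, 2998 autosomal genes (23.1%) had a p under 0.05 in the paired fit, and 831 without the block, both by limma.

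The gene chr15.189534 on chromosome 15 rose with the smallest adjusted p. Its normalized count was 1383, 1032, 1521 and 1965 in TcMAC21 replicates 1 to 4 and 797, 655, 1044 and 924 in euploid replicates 1 to 4. Each TcMAC21 pup was above its own littermate, but the lowest TcMAC21 pup, replicate 2, was below euploid replicate 3, so the groups overlapped. The means were 1475 ± 386 (SD, n = 4) and 855 ± 167 (SD, n = 4), and the within-pair log2 change was 0.77 (standard error 0.10, adjusted p = 0.00998 by limma).

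The gene chr5.389442 on chromosome 5 was the next to rise. Its normalized count was 1854, 2040, 2321 and 2446 in TcMAC21 replicates 1 to 4 and 1431, 1273, 1397 and 1661 in euploid replicates 1 to 4. All 4 TcMAC21 pups were above all 4 littermates. The log2 change was 0.59 (standard error 0.08, adjusted p = 0.0156 by limma), and the ratio within a pair ran from 1.30 in pair 1 to 1.66 in pair 3.

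Among the genes that fell, chr3.308256 on chromosome 3 had the smallest adjusted p and the largest change of the 119. Its normalized count was 1398, 1868, 1620 and 1603 in TcMAC21 replicates 1 to 4 and 4839, 6903, 3663 and 3880 in euploid replicates 1 to 4, so the groups were far apart. The log2 change was -1.53 (standard error 0.13, adjusted p = 0.000486 by limma), and the TcMAC21 pup held from 0.271 (pair 2) to 0.442 (pair 3) of its littermate's count.

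The gene chr16.198740 on MMU16 fell by a smaller and more even step. Its normalized count was 905, 1081, 756 and 821 in TcMAC21 replicates 1 to 4 and 1278, 1599, 1193 and 1332 in euploid replicates 1 to 4, without overlap. The log2 change was -0.60 (standard error 0.07, adjusted p = 0.00681 by limma), with ratios from 0.617 (pair 4) to 0.708 (pair 1). Without the pair as a block, chr3.308256 still passed by limma (adjusted p = 0.00105), while the adjusted p was 0.349 for chr15.189534, 0.128 for chr5.389442 and 0.203 for chr16.198740. Without the fourth pair, the adjusted p by limma was 0.000442 for chr15.189534, 0.0019 for chr5.389442, 1.4e-05 for chr3.308256 and 0.000733 for chr16.198740. With each pair left out in turn, the adjusted p by limma reached 0.0883, 0.166 and 0.0942 for chr15.189534, chr5.389442 and chr16.198740, and at most 0.00613 for chr3.308256.

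**Figure D2:**
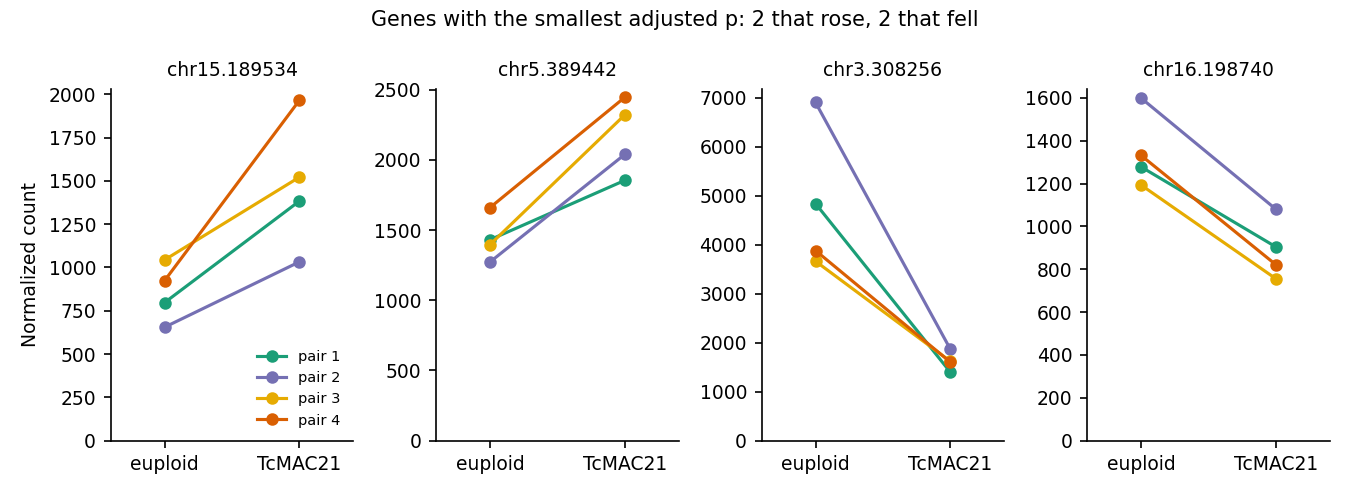
Normalized count (y axis, from 0) of the 2 genes that rose and the 2 that fell with the smallest adjusted p, with euploid littermates on the left and TcMAC21 pups on the right of each panel and a line joining the animals of a pair. All 4 lines run upward for chr15.189534 and chr5.389442 and downward for chr3.308256 and chr16.198740.

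In the 3 pairs in which both pups had Y-linked RNA, far more autosomal genes separated TcMAC21 from euploid. By limma, 1985 genes (15.3%) were called, 811 higher and 1174 lower, beside 16.2% of all genes tested. All of the 119 genes were among them. The median log2 change was 0.31 over the 811 genes and -0.35 over the 1174 genes. In the fourth pair, which did not take part in this fit, 1414 of the 1985 genes (71.2%) moved in the same direction, while 59.7% of all autosomal genes did. The median change in that pair was 0.27 over the 811 genes and -0.21 over the 1174 genes. In the fourth pair, Y-linked RNA, depth and differences between the single pups cannot be told apart. Leaving out pair 1, 2 or 3 instead gave 11, 2 and 2 genes by limma.

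Calls were rare among genes of low abundance. The 119 called genes had a median mean count of 1124, against 453 over all autosomal genes, and ran from 24.1 to 10422. The genes were divided by mean count into 10 classes of like size. In the lowest class, with means from 10.02 to 43.5, 1 of 1296 genes was called. In class 9, with means from 1412 to 2445, 26 of 1296 genes (2.01%) were called. The SD of the within-pair changes was 0.567 in the lowest and 0.163 in the highest class in pair 1, and 0.873 and 0.42 in pair 4. The share of genes with all 4 changes in one direction was 19.6% in the lowest class and 41.5% in class 9. The most abundant gene, on chromosome 9, took 2.66% to 4.44% of a library's reads. Its log2 change was -0.19, -0.41, -0.43 and -0.21 in pairs 1 to 4, and it was not called (adjusted p = 0.217 by limma).

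The largest changes within single pairs were seldom shared by the other pairs. A change of more than 4-fold in at least one pair was found for 89 genes, and for 84 of them in one pair only. These genes were scarce, with a median mean count of 24.1. In 17 of the 89, another pair moved by more than 2-fold in the opposite direction. The extremes were a log2 change of 6.27 in pair 2 and of -5.55 in pair 1. Of the 89 genes, 1 was called, beside 0.918% of all autosomal genes. The mean change over the pairs exceeded 2-fold for 29 genes, 19 higher and 10 lower, and 3 of the 29 were called, beside the same 0.918%. Both sets were picked by the size of the change in these data.

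Median changes of whole autosomes were small, and their order was similar but not identical between pairs (Spearman's rho from 0.865 to 0.965 over 19 autosomes). The median within-pair change over the genes of a chromosome was above 0 in all 4 pairs for 7 autosomes and below 0 in all 4 pairs for 8. Chromosome 7 had the highest mean of the 4 medians, with values of 0.08, 0.08, 0.09 and 0.04 in pairs 1 to 4 over 993 genes. Chromosome 17 had 0.05, 0.06, 0.07 and 0.09 over 680 genes. At the other end, chromosome 13 had -0.05, -0.09, -0.08 and -0.05 over 471 genes, and chromosome 3 had -0.04, -0.09, -0.07 and -0.05 over 641 genes. Chromosome 7 was above chromosome 13 in every pair, but both were picked as the extremes of these same medians. With one value per pair, an exact two-sided sign-flip permutation test over 4 pairs cannot reach a p of 0.05, and the 15 autosomes with one direction all had the smallest p it can give, 1 in 8.

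The mouse chromosomes that hold the counterparts of human chromosome 21 genes, MMU16, MMU17 and MMU10, did not share a direction. The mean of the 4 pair medians was -0.04 ± 0.03 (SD, n = 4 pairs) on MMU16, 0.07 ± 0.02 on MMU17 and -0.01 ± 0.02 on MMU10, all within the range of the other autosomes, from -0.07 on chromosome 13 to 0.07 on chromosome 7. MMU16 had 4 called genes of 423, all lower. MMU17 had 13 of 680 (1.91%), 8 higher and 5 lower, and held the most called genes of any autosome and the most that rose. MMU10 had 3 of 646. Chromosome 14 had 10 of 469 (2.13%), all lower, and chromosome 7 had 2 of 993 (0.201%), both lower. The share over all autosomes was 0.918%, and these shares were not tested against it. On chromosomes 1, 3, 6, 9, 12, 13, 14, 16 and 18, every called gene was lower in TcMAC21, as were the 2 on chromosome 7.

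**Figure D3:**
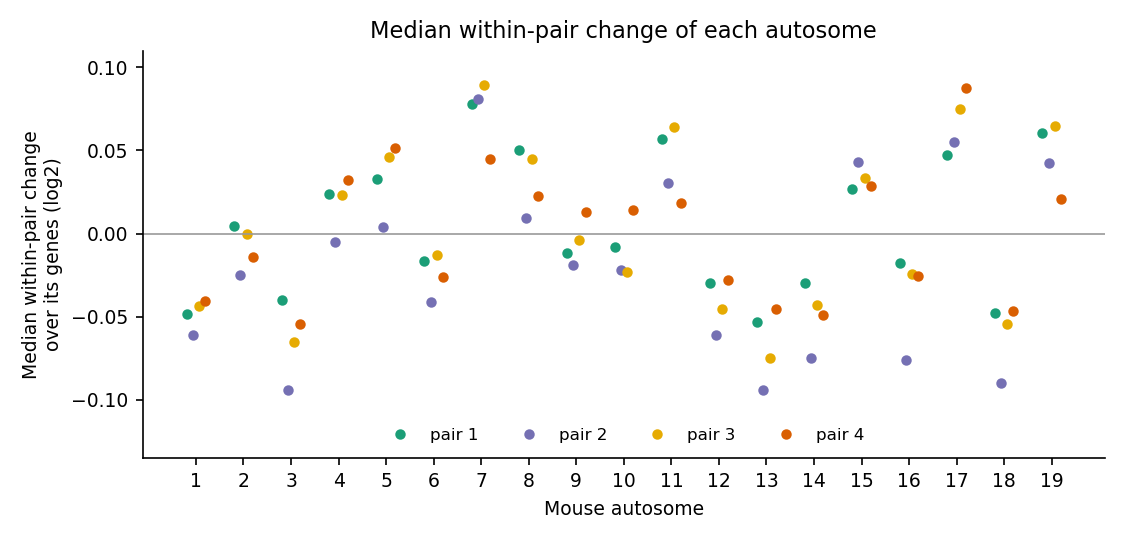
Median within-pair change (y axis, log2, TcMAC21 minus euploid littermate) over the genes of each mouse autosome (x axis), one point per pair. The points of an autosome lie close together, with chromosomes 7 and 17 highest (means of 0.07 and 0.07) and chromosome 13 lowest (mean of -0.07).

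The order of the autosomes followed the base composition of their transcripts. The share of G and C (GC) was taken from the longest transcript of each protein-coding gene of the GENCODE annotation of GRCm39, and its median per autosome ran from 46.2% on chromosome 13 to 52.2% on chromosome 11. Over the 19 autosomes, Pearson's r between this median GC and the median change was 0.855, 0.87, 0.863 and 0.826 in pairs 1 to 4. The slope was 0.019, 0.026, 0.024 and 0.018 log2 units per percent GC in pairs 1 to 4, upward in each. Single libraries differed in this respect within a group too. Against the mean of the 8 animals, the medians of the autosomes correlated with GC by 0.66, -0.70, 0.89 and 0.83 in TcMAC21 replicates 1 to 4 and by -0.83, -0.88, -0.64 and 0.64 in euploid replicates 1 to 4. The autosomes are few and share gene density and transcript length besides GC (r between median change and median transcript length, -0.64). GC of single genes could not be used, because the table does not say where a gene lies, and the part of base composition in the changes of single genes was not tested. With each gene centred on its chromosome's median in every library, 81 genes were called by limma, 28 higher and 53 lower, and 63 of them were among the 119.

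**Figure D4:**
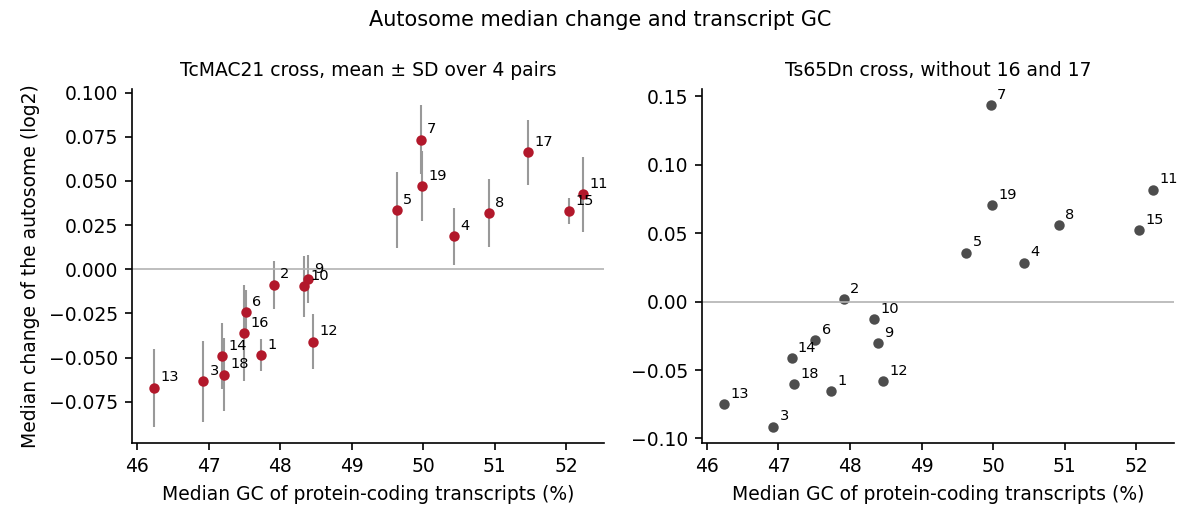
Median change of each autosome (y axis, log2) against the median GC of its protein-coding transcripts (x axis, percent), for the TcMAC21 cross (left, mean and SD over 4 pairs, 19 autosomes) and for the Ts65Dn cross (right, one value per autosome, without 16 and 17). Autosomes with a higher GC lie higher in both panels, with Pearson's r of 0.879 on the left and 0.825 on the right.

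The Ts65Dn cross measured the same genes in other animals, with no control shared. Ts65Dn pups were compared there with their littermates by limma without pairs. The paper took these pups in pairs from litters too, but in earlier work on these data their replicate numbers did not deviate together. The paired TcMAC21 fit is thus of another design, and without pairs 2 autosomal genes were called in the TcMAC21 cross by limma. Of the 28 genes that rose in TcMAC21, 27 had a log2 change above 0 in Ts65Dn, and all 91 genes that fell had one below 0. Over the 12884 autosomal genes tested in both crosses, 71.6% had the same sign. The median log2 change in Ts65Dn was 0.42 over the 28 genes and -0.49 over the 91 genes, beside 0.01 over all genes. The medians in TcMAC21 were 0.50 and -0.51. The Ts65Dn and euploid groups did not overlap, in the same direction, for 3 of the 28 genes and 1 of the 91 genes, beside 4.59% of all autosomal genes higher and 4.3% lower. With all 8 animals of the Ts65Dn cross, 0 of the 12884 genes were called by limma (smallest adjusted p = 0.0902), although 2206 (17.1%) had an unadjusted p under 0.05, among them 32 of the 119 genes (26.9%). That count rested on 1 library, since 3591 autosomal genes were called by limma without Ts65Dn euploid replicate 1. The 12884 genes include MMU16 and MMU17 genes with an additional copy in Ts65Dn, and with all 8 animals these did not pass either. The paper, which used DESeq2, reports trisomic and disomic genes as differentially expressed in Ts65Dn. Y-linked RNA was present in 2 of the 4 Ts65Dn pups and in 2 of their 4 littermates, and its part in the spread of this cross was not tested. Of the 119 genes, 17 lie on MMU16 or MMU17, parts of which have an additional copy in Ts65Dn. Of the 1983 genes called without the fourth pair and tested in Ts65Dn, 1897 (95.7%) had the same sign there.

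**Figure D5:**
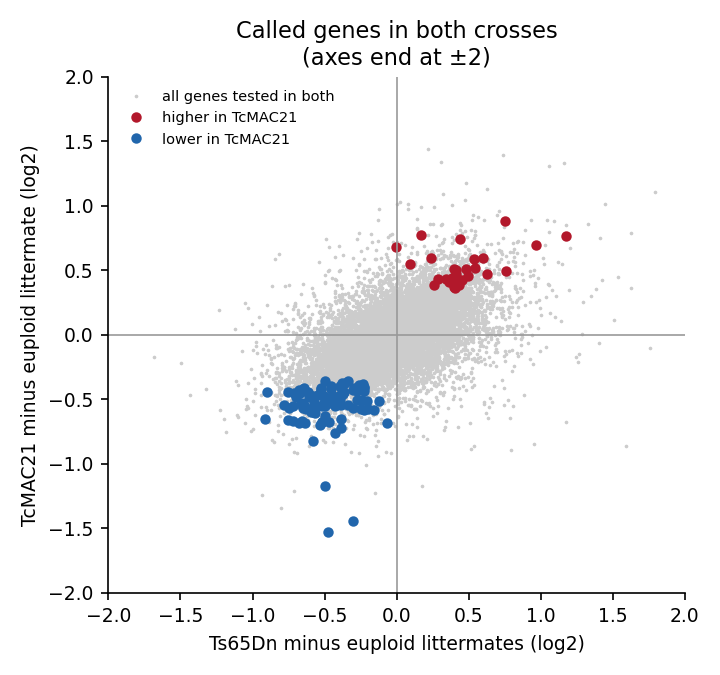
Log2 change in TcMAC21 (y axis) against that in Ts65Dn (x axis), each against its own euploid littermates, for the autosomal genes tested in both crosses (grey, with 1 gene beyond the axes) and the 119 called genes (red, 28 higher; blue, 91 lower). The red points lie to the right of 0 with 1 exception close to 0, and the blue points all lie to the left.

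The autosome medians of the crosses were also alike. Without chromosomes 16 and 17, which carry the extra copies in Ts65Dn, the medians of the remaining 17 autosomes correlated with Pearson's r of 0.973 between the crosses. The Ts65Dn medians followed transcript GC as well (r = 0.825), with r = 0.871 when Ts65Dn euploid replicate 1 was left out. The part of base composition in the likeness of the crosses was not tested.

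The difference between the crosses was tested directly over all 16 animals, with pairs as a block in the TcMAC21 cross. By limma, 1 of 12884 autosomal genes differed at an adjusted p under 0.05 (0.00776%, beside 0.0375% of all genes tested), and 589 (4.57%) did so before adjustment. That gene, on MMU16, changed by -0.14 in TcMAC21 and 0.68 in Ts65Dn on the log2 scale. It was called by limma in none of the fits without a TcMAC21 pair, and 5 autosomal genes were called without Ts65Dn euploid replicate 1. Of the 119 genes, 0 passed (smallest adjusted p = 0.999 by limma), and 4 had an unadjusted p under 0.05. The genes tested include those of MMU16 and MMU17 whose mouse copy number is raised in Ts65Dn only. At most 1 of these passed, so the test missed genes whose copy number differs between the crosses. The lack of calls, among the 119 genes too, therefore does not show that the crosses changed alike. For chr3.308256 the log2 change was -0.48 (standard error 0.36) in Ts65Dn, and the difference of -1.06 (standard error 0.45) between the crosses had an unadjusted p of 0.035 by limma. For chr16.198740 the change in Ts65Dn was -0.57 (standard error 0.26) and the difference -0.03 (standard error 0.32). For chr5.389442 the change in Ts65Dn was 0.54 (standard error 0.33) and the difference 0.05 (standard error 0.41). For chr15.189534 the change in Ts65Dn was 0.17 (standard error 0.37), and its difference of 0.60 had a standard error of 0.45. Without Ts65Dn euploid replicate 1, the change in Ts65Dn was 0.85 for chr5.389442 (adjusted p = 0.024) and -0.85 for chr16.198740 (adjusted p = 0.00977), both past the threshold by limma. In that fit the change was -0.65 for chr3.308256 (adjusted p = 0.161 by limma) and 0.25 for chr15.189534 (adjusted p = 0.612 by limma).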

How the data were processed

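Per the paper, the authors sequenced poly(A) libraries as paired 50 bp reads, mapped them to mm39 plus human chromosome 21 with STAR 2.4.2a (named in the submitters' processing notes), built gene models with PsiCLASS and normalized with DESeq2. The deposited values are a signal in normalized counts, that is, the read count of a gene divided by one size factor per library. Dividing each library by its smallest step gave whole reads for 100% of values, within a tolerance of 0.01. A count of 3 reads corresponds to a normalized count of at most 5.92 in the TcMAC21 cross. These limits cover counting error only.

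The main test was the moderated test of limma 3.58.1, its prior following abundance, on log2(normalized count + 1), with genotype and the replicate number as a block, over genes with a mean of at least 10, and a Benjamini-Hochberg adjusted p under 0.05 over all 13523 genes tested. Where nothing else is said, p-values measure the spread between these samples. The authors took pups in pairs from litters, and the residuals from the group means of pups with one number correlated by 0.499, 0.50, 0.20 and 0.524 over the autosomal genes. Each animal correlated best with its own number. There were fewer litters than pairs, and the labels do not say which pairs share one, so p-values take the pairs as independent.

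As alternatives, the recovered reads were tested with edgeR 4.0.16 and DESeq2 1.42.0 in R 4.3.3, which called 127 and 670 autosomal genes, and limma was rerun under other pseudocounts, filters, scalings and covariates and with single pairs left out. The tests across genes (limma, edgeR and DESeq2) were tested on simulated data. The genes and comparisons were chosen with earlier results of these data known. The identifiers printed are, of the called genes with 4 changes in one direction, the 2 that rose and the 2 that fell with the smallest adjusted p. Tests of single values were exact sign-flip permutation tests over pairs (SciPy 1.17.1, Python 3.11.15), and plots used matplotlib 3.10.9. Analyses by gene name, gene set or sequence were not made, because the table pairs no identifier with a symbol or a position.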

Additional observations from a re-analysis of the deposited data

Results flagged for a closer look

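Of 42 groups of 4 values examined for a single distant value, 1 was flagged, and chance flags about 1 group in 20. The median within-pair change of chromosome 16 was -0.076 in pair 2, while the other pairs lay between -0.025 and -0.018, a gap of 0.873 of the range.

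The 1 autosomal gene called for a difference between the crosses lies on MMU16, part of which has an additional copy in Ts65Dn. The identifier does not say whether this gene lies in that part. Its normalized count was 14227, 15202, 14477 and 15398 in TcMAC21 replicates 1 to 4 and 15543, 17140, 16001 and 16445 in their littermates. In the Ts65Dn cross it was 19825, 20802, 22822 and 21027 in the trisomic pups and 11877, 13378, 13786 and 13603 in the littermates, without overlap. The log2 change was -0.14 in TcMAC21 and 0.68 in Ts65Dn, a difference of -0.82 (standard error 0.13, adjusted p = 0.0396 by limma). This gene was singled out after its values were seen.

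Outside the autosomal genes, the summed normalized count of human chromosome 21 was at least 48003 in a TcMAC21 pup, against 205 to 338 in the littermates.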

How the results depend on the processing

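Over 21 alternatives each, the 4 printed genes kept their direction, and chr3.308256 passed in all 21, the others in 15, while the number of called genes was not stable. From 119 genes (28 higher, 91 lower), limma gave 2 (0 and 2) with no replicate block, the pairing being the main design, 68 (18 and 50) with a minimum mean of 50, 13 (7 and 6) without the trend, of which 6 were among the 119, 1 (0 and 1) without the human, X and Y genes, 2181 (934 and 1247) with the Y-linked sum as a covariate and 809 (326 and 483) at a threshold of 0.1. With one pair left out it ran from 2 (1 and 1) to 1985 (811 and 1174). The Y-linked sum differed within a pair mainly in pair 4 (2719 in the TcMAC21 pup and 7.15 in its littermate). As a covariate it therefore stood largely for that pair. Of the 119, 10, 1, 2 and 119 were called without pair 1, 2, 3 and 4. DESeq2 gave 670 (275 and 395), and 118 of the 119 were among them. edgeR gave 127 (34 and 93), and 117 of the 119 were among them. Pseudocount 0.1, no filter, quantile normalization and TMM factors stayed within 1.5 times the main count. Chosen after seeing the data, limma without the fourth pair and without the human, X and Y genes gave 1943 (782 and 1161), edgeR without the fourth pair 2061 (830 and 1231) and DESeq2 without it 1066 (358 and 708). Without the human, X and Y genes, edgeR gave 1 (0 and 1) and DESeq2 687 (274 and 413). Centring on the chromosome median gave 53 lower genes. The cause of these differences was not tested.

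The autosome medians kept their value within 1 SD between pairs in 122 of 133 comparisons. Quantile normalization moved chromosomes 1, 2, 6, 9, 10, 12 and 13 to -0.068, -0.033, -0.040, -0.019, -0.028, -0.061 and -0.096, and chromosomes 15, 17 and 19 to 0.0062, 0.037 and 0.026, and a minimum mean of 50 moved chromosome 15 to 0.024. The correlation of the medians with GC ran from 0.856 to 0.881. The number of genes that differed between the crosses ran from 0 to 5 with single animals or pairs left out, namely 5 in the fit lacking Ts65Dn euploid replicate 1, 2 in that lacking Ts65Dn replicate 1 and 0 in the others. The number of the 119 genes with the same sign in Ts65Dn ran from 114 to 119 with single Ts65Dn animals left out.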
